A study of Mus musculus with 4 samples.

Results

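The genes described here are the immediate-early and activity-induced genes of the mouse, measured in the cervical spinal cord of NC/Nga mice, a strain in which housing can bring on a skin disease like atopic dermatitis. They were chosen by name, from a list of 41 symbols that stand for 40 genes (Cyr61 and Ccn1 name the same gene), and every array probe annotated to one of them was taken. That gave 72 of the 45281 probes of the array, for 39 of the 40 genes; no probe analysed here was annotated to Fosl1. All mice were males of the inbred strain NC/Nga, 9 weeks old. SPF mice had been kept under specific pathogen free housing and had a normal phenotype, and conventional mice had been kept in conventional housing and had the dermatitis phenotype, so housing and disease cannot be told apart. Each group had 2 Illumina BeadChip arrays, and the labels do not say whether an array came from 1 animal or from several. The p-values therefore measure the spread between these arrays.

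Immediate-early genes are transcribed within minutes of a stimulus without the need for new protein. In neurons, calcium entry acts through the MAP kinase cascade and calcium-dependent kinases on factors that already sit at the promoter, chiefly CREB at cAMP response elements and SRF with its partners at CArG boxes. The first products are transcription factors of the FOS, JUN, EGR and NR4A families; others are feedback regulators that shut the signal down, such as the MAP kinase phosphatases, and effectors at the synapse such as Arc, Homer1 and Nptx2, some of which accumulate later. In the spinal cord, Fos induction in dorsal horn neurons is a widely used mark of noxious or itch-evoking input. Glia and endothelial cells also induce many of these genes.

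Proximal promoters are shown for the 3 members of smallest p that the RefSeq promoter table (build GRCm38.p6) holds, and for Gadd45b, the member that lay on the other side. Each is the 250 bases before the annotated gene start, 5′ to 3′ on the gene's own strand, with capitals marking the core TGACG of the cAMP response element, read on either strand, or the full element TGACGTCA.
Fosb (chr7:19310046-19310295, minus strand): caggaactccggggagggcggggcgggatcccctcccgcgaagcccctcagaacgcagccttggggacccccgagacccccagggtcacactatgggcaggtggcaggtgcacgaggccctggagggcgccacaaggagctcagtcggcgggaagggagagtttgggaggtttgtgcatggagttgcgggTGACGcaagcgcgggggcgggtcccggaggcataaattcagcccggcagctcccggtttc
Fos (chr12:85473640-85473889, plus strand): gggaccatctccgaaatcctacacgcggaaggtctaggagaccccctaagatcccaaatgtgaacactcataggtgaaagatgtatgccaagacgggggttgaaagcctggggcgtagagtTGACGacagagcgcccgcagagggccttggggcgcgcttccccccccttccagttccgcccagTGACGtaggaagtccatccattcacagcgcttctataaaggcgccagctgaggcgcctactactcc
Dusp1 (chr17:26508473-26508722, minus strand): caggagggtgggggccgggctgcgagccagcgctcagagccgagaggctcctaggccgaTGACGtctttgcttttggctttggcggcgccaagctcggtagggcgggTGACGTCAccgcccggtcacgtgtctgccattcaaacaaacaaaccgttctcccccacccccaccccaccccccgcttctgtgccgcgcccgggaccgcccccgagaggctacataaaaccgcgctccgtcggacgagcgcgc
Gadd45b (chr10:80929841-80930090, plus strand): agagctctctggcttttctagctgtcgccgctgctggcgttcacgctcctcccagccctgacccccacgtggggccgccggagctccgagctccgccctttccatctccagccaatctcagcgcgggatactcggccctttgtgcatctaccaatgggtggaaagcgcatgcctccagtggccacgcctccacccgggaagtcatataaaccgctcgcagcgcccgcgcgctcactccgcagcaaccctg

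The core TGACG began 60 bases before the gene start in Fosb and 129 and 66 bases before it in Fos. Dusp1 held the full element, beginning 143 bases before the start, and a separate core at 191. Gadd45b held none of these letters in this window. The table held 30 of the 40 genes, with 37 windows. The core was found in 23 of these 37 windows (62.2%), from 20 genes, and in 17.8% of all 32851 windows of the same length. Windows of a gene with several starts were counted separately and can overlap. The full element, whose letters contain the core on both strands, was found in Dusp1, Btg2 and Maff, or 3 of 37 windows (8.11%) against 1.55% of all windows. The core was present in 5 of 8 listed members whose conventional arrays lay above the SPF arrays (Fos, Fosb, Dusp1, Dusp5 and Homer1), in 9 of 13 whose groups overlapped and in 6 of 8 that were not tested. These are matches of letters, not sites known to be bound.

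Between 44.9% and 46.3% of all probes were above background on each array (detection p under 0.05), and median signals ran from 113.6 to 119.4. A log2 value below about 5.1 is at the edge of detection, since the lowest value of a detected probe was between 5.03 and 5.08 on the 4 arrays. Of the listed genes that mark position along the cord, 6 of the 10 with probes were tested. Hoxa5 and Hoxb5 were measured on all arrays. The lumbar genes Hoxc10 and Hoxd10 were above background on none, but neither was Hoxc5, so absence of signal does not mark position by itself. Markers of neighbouring tissues varied from array to array. The summed level of meningeal fibroblast markers (10 of 10 tested) was 7822.4 and 29812.4 on the SPF arrays and 11502.5 and 5095.3 on the conventional arrays, and that of skeletal muscle markers (9 of 10) was 3434.6 and 962.9 against 1185.1 and 638.7. Their part in the results below was not tested. The cord is a mixture of cells, so a change in the number of cells of a type and a change in RNA per cell cannot be told apart.

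Of the 40 genes, 29 were tested, each by its brightest probe that was above background on at least 2 arrays. Of these, 27 were above background on all 4 arrays. Trib1 was above background on the conventional arrays only, so its passing the filter rested on that group. The other 10 genes with probes stayed near background: the 16 probes of Atf3, Maff, Nr4a1, Nr4a3, Btg2, Ier2, Ier5, Sik1, Ptgs2 and Ccn1 gave bead signals between 92.0 and 128.6. Among them, Atf3, a stress-induced factor of injured neurons, was above background on 1 SPF array, and Sik1, a kinase that restrains CREB coactivators, on 1 conventional array. The prostaglandin synthase gene Ptgs2, the orphan receptor genes Nr4a1 and Nr4a3 and the matricellular gene Ccn1 were not above background on any array, so no difference in them could be seen at this sensitivity.

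No member passed limma's test over all 14634 features: the adjusted p was 1 for each of the 29, and 0 features passed (0% called). At an unadjusted p under 0.05, 4 members were higher in conventional cord (Fosb, Egr3, Dusp1 and Dusp4) and 0 were lower, against 1.31% and 1.72% of all features. The conventional arrays lay wholly above the SPF arrays in 11 of 29 members (37.9%), against 15.6% of all features, and below them in 1 member, Gadd45b, against 15.1% of all features. The mean was higher in conventional cord in 23 of 29 members, against 49.9% of features. The median difference over the tested members was 0.26 log2 units, beside 0.00 over all features. It was 0.09 without SPF replicate 1 and 0.41 without SPF replicate 2. These counts include Trib1. Over the 28 members above background on at least 1 array of each group, 10 (35.7%) were higher without overlap, against 14.7% of such features, and the median difference was 0.24. Each difference below is the conventional mean less the SPF mean, in log2 units, with the standard error of the fit (n = 2 arrays per group).

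**Figure D1:**
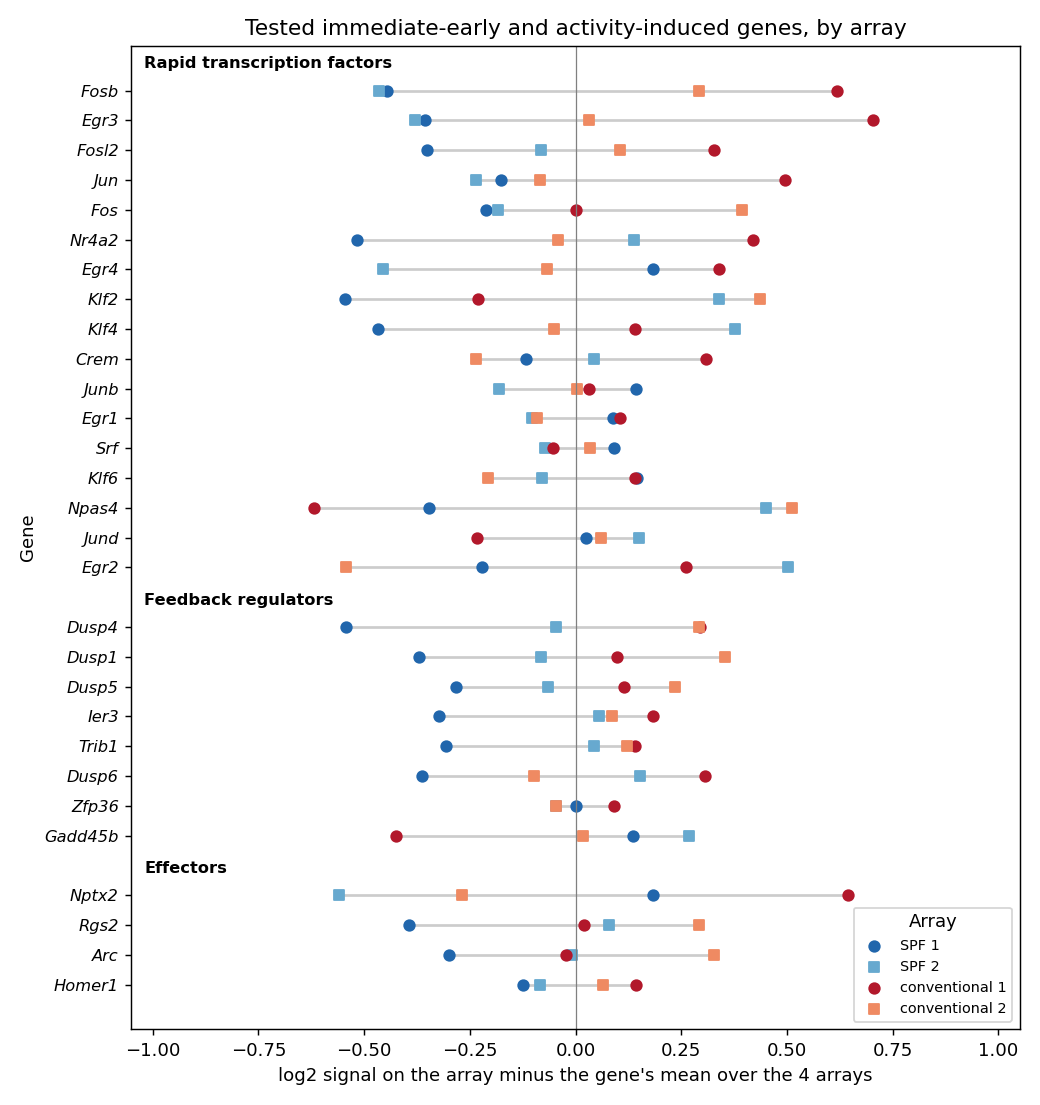
Each row is a tested gene and each point 1 array, as the log2 signal minus that gene's mean over the 4 arrays (horizontal axis); rows are ordered within each class by the difference between groups. Fosb and Egr3 show both SPF arrays together on the left, and SPF replicate 1 is the lowest array for most of the feedback regulators.

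Among the FOS and JUN genes, whose proteins pair to form the transcription factor AP-1, Fosb stood furthest apart. Its log2 signal was 6.21 and 6.19 on the SPF arrays and 7.28 and 6.95 on the conventional arrays. The groups were separated by 0.74, and the SPF arrays differed by less than the conventional arrays did. The difference was 0.91 ± 0.22, a 1.88-fold higher signal (95% interval 0.40 to 1.42; limma, unadjusted p = 0.00398, adjusted p = 1). With 1 array left out it ranged from 0.75 to 1.07, but it was 0.49 without background correction and 0.26 in the authors' normalized table.

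Fos, the standard mark of recent neuronal activity, was at 8.58 and 8.61 on the SPF arrays and at 8.80 and 9.19 on the conventional arrays. The SPF arrays were nearly equal, and conventional replicate 2 was the highest. The difference was 0.39 ± 0.18 (95% interval -0.02 to 0.81), and it was 0.20 without conventional replicate 2. Fosl2, which encodes the FOS-related factor FRA2, was at 7.24 and 7.51 against 7.92 and 7.69, without overlap, and differed by 0.43 ± 0.20. Jun, the principal partner of FOS, was at 7.69 and 7.63 against 8.36 and 7.78. Its groups did not overlap, but the shift lay mostly on conventional replicate 1, and the difference of 0.41 ± 0.23 dropped to 0.12 without that array.

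The other JUN genes were not set apart. Junb, an AP-1 partner that is itself rapidly induced, differed by 0.04 ± 0.18, and Jund, which is expressed more constitutively, by -0.17 ± 0.19 (-0.03 without conventional replicate 1). Both had overlapping groups. The sign for Junb turned to -0.03 when arrays were scaled by their medians. In this family the conventional arrays lay wholly above the SPF arrays in 4 of the 6 tested genes, against 15.6% of all features, and the median difference was 0.40.

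**Figure D2:**
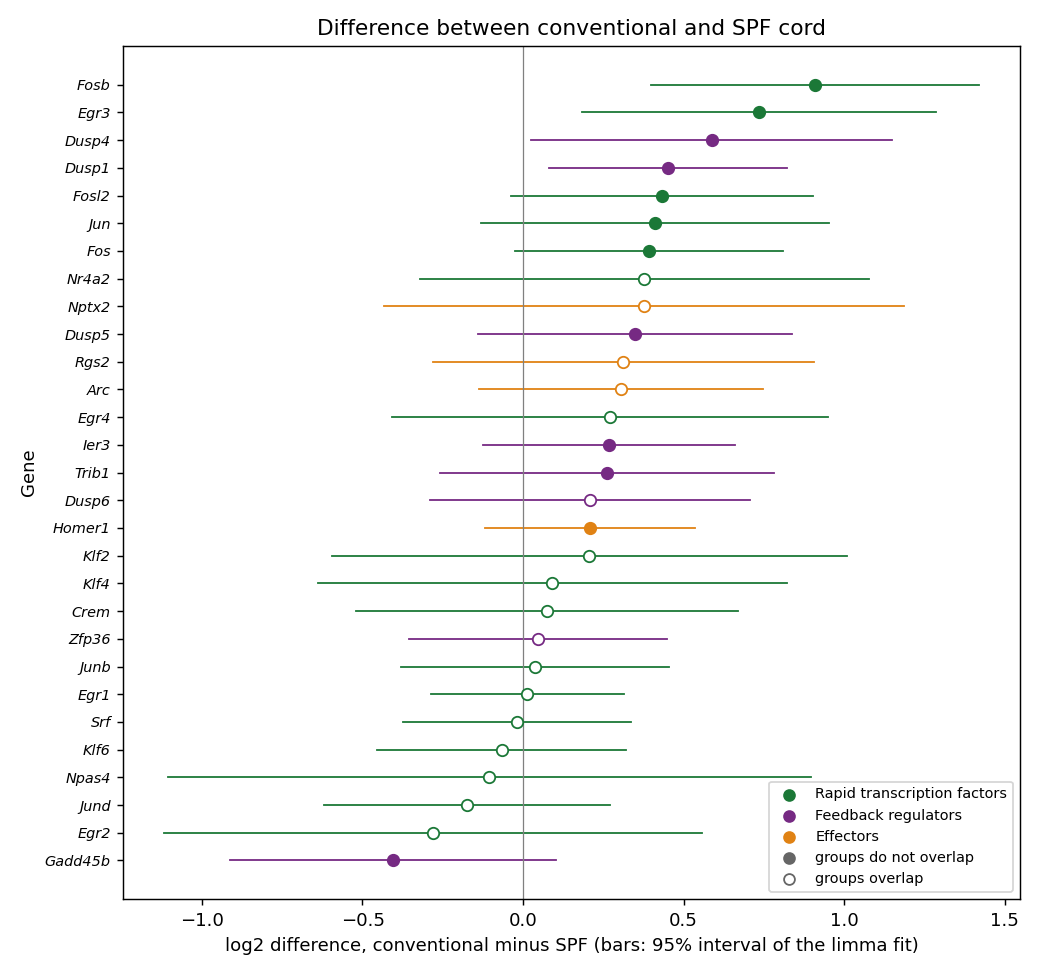
The log2 difference between conventional and SPF cord is plotted for the 29 tested genes, with the 95% interval of the limma fit; filled points mark genes whose groups do not overlap, and colours mark the classes. The intervals of Fosb, Egr3, Dusp4 and Dusp1 lie above 0, and that of Egr1 runs from -0.29 to 0.31.

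The EGR genes encode zinc-finger factors that share a GC-rich binding site. Egr3 was at 8.13 and 8.11 on the SPF arrays and at 9.19 and 8.52 on the conventional arrays. As for Fosb, the SPF arrays were almost equal and conventional replicate 1 was the highest. The difference was 0.74 ± 0.23, a 1.66-fold higher signal (95% interval 0.18 to 1.29; limma, unadjusted p = 0.0162, adjusted p = 1), and 0.40 without conventional replicate 1. A second Egr3 probe, close to background at 5.58 and 5.26 against 5.53 and 5.19, differed by -0.06, and with the mean of both probes the difference was 0.34.

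Egr1, the most studied gene of the family, gave 11.52 and 11.33 on the SPF arrays and 11.53 and 11.34 on the conventional arrays. Nearly the same pair of values recurred in both groups, and the difference was 0.01 ± 0.13, so a change beyond about 0.3 log2 units in either direction lies outside its 95% interval. Its sign turned under median scaling (-0.02). Egr2, which in Schwann cells directs myelination, differed by -0.28 ± 0.35, and Egr4 by 0.27 ± 0.29. In both the groups overlapped and the values came close to background on some arrays.

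By the brightest probe of each gene, the remaining rapid factors showed no separation of the groups. Npas4, a neuron-specific factor induced by calcium influx, was at 5.57 and 6.37 in SPF cord and 5.30 and 6.43 in conventional cord. The 2 arrays within each group lay further apart than the group means, which differed by -0.10 ± 0.42. Klf2, a factor of endothelial cells under flow, likewise varied more within the groups than between them, at 7.41 and 8.30 against 7.73 and 8.39 (0.21 ± 0.34). Nr4a2, an orphan nuclear receptor, differed by 0.38 ± 0.30 and was above background on 1 of 2 SPF arrays. That difference was 0.05 without SPF replicate 1 and 0.71 without SPF replicate 2. Klf6 (-0.07 ± 0.16), Crem, which also encodes the inducible repressor ICER (0.07 ± 0.25), and Srf itself (-0.02 ± 0.15) lay near 0, and the brightest probe of Klf4, at 5.22 and 6.07 against 5.83 and 5.64, gave 0.09 ± 0.31.

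The MAP kinase phosphatases, which remove phosphate from activated ERK, p38 or JNK and are themselves induced by those kinases, were higher on average in conventional cord for 4 of 4 tested genes (49.9% of all features), and in 3 of 4 the groups did not overlap (15.6% of all features). Dusp1 was at 9.67 and 9.96 on the SPF arrays and at 10.14 and 10.39 on the conventional arrays. The gap between the groups, 0.18, was smaller than the spread within either. The difference was 0.45 ± 0.16, a 1.37-fold higher signal (limma, unadjusted p = 0.0240, adjusted p = 1), and it ranged from 0.31 to 0.60 with 1 array left out.

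Dusp4 was at 6.13 and 6.63 in SPF cord and at 6.97 and 6.97 in conventional cord. The conventional arrays agreed closely and SPF replicate 1 was the lowest. The difference was 0.59 ± 0.24 (limma, unadjusted p = 0.0431, adjusted p = 1), 0.34 without SPF replicate 1 and 0.31 without background correction. Dusp5, a nuclear phosphatase of ERK, was at 6.49 and 6.71 against 6.89 and 7.01, and differed by 0.35 ± 0.21 (0.19 without background correction). Dusp6, its cytoplasmic counterpart, had overlapping groups at 9.78 and 10.29 against 10.44 and 10.04, with a difference of 0.21 ± 0.21 that turned to -0.05 without SPF replicate 1.

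Of the other early-response regulators, Ier3, which modulates cell survival, was at 9.04 and 9.42 against 9.55 and 9.45. The gap between its groups was 0.03, and the difference of 0.27 ± 0.17 was 0.08 without SPF replicate 1. Trib1, a pseudokinase gene, was at 4.67 and 5.02 against 5.12 and 5.10. All 4 values were at the edge of detection, and since no SPF array was above background no fold is given. Zfp36, whose protein destabilizes mRNAs with AU-rich elements, differed by 0.05 ± 0.17 with overlapping groups, a sign that turned under median scaling. Gadd45b, a stress-induced regulator of growth arrest and of MAP kinase signalling, was the member with both conventional arrays below both SPF arrays. It stood at 7.71 and 7.84 in SPF cord and at 7.15 and 7.59 in conventional cord. The difference was -0.40 ± 0.22, a 1.32-fold lower signal (limma, unadjusted p = 0.102, adjusted p = 1). Leaving out conventional replicate 1 gave -0.18, and leaving out conventional replicate 2 gave -0.63. Conventional replicate 1, on which 15 of the 29 members (and 23.1% of all features) had their highest value, was its lowest array.

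Among the effectors, Arc, which acts at the synapse on the removal of AMPA receptors, was at 8.51 and 8.80 on the SPF arrays and at 8.78 and 9.13 on the conventional arrays. The groups overlapped slightly, and the difference of 0.31 ± 0.19 came to 0.13 when conventional replicate 2 was left out and to 0.48 when conventional replicate 1 was. Homer1, a scaffold of metabotropic glutamate receptors, was at 8.89 and 8.93 against 9.16 and 9.08. Its groups did not overlap, and the difference was 0.21 ± 0.14, with a narrow range of 0.17 to 0.25 when 1 array was left out. Nptx2, a secreted pentraxin that gathers AMPA receptors, was at 9.29 and 8.55 against 9.75 and 8.84. Here the arrays numbered 1 were high in both groups, and the difference of 0.38 ± 0.34 turned to -0.08 without conventional replicate 1. Rgs2, an inhibitor of G protein signalling, was at 5.40 and 5.87 against 5.81 and 6.08. Its groups overlapped, and the difference of 0.31 ± 0.25 was 0.08 without SPF replicate 1 and 0.03 with the mean of its probes.

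The contrast of rapid factors with effectors depended on the measure. The median difference was 0.09 over 17 tested rapid transcription factors, 0.27 over 8 feedback regulators and 0.31 over 4 effectors. To compare the classes array by array, each gene was set against its own mean over the 4 arrays and the median was taken over the class. The rapid factors then stood at -0.21 and -0.08 on the SPF arrays and at 0.14 and 0.00 on the conventional arrays. The effectors stood at -0.21 and -0.05 against 0.08 and 0.18. Both classes were lowest on SPF replicate 1, and in both the conventional arrays were above the SPF arrays; the rapid factors peaked on conventional replicate 1 and the effectors on conventional replicate 2. The rapid median minus the effector median was 0.00 and -0.03 on the SPF arrays and 0.06 and -0.17 on the conventional arrays, a change between groups of -0.04 with a pooled standard deviation between replicates of 0.12. By this measure the classes did not separate, while the medians of the differences above (0.09 and 0.31) lay further apart, with only 4 effectors tested. The sign of the contrast taken array by array turned under other processing, as given in the closing section.

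**Figure D3:**
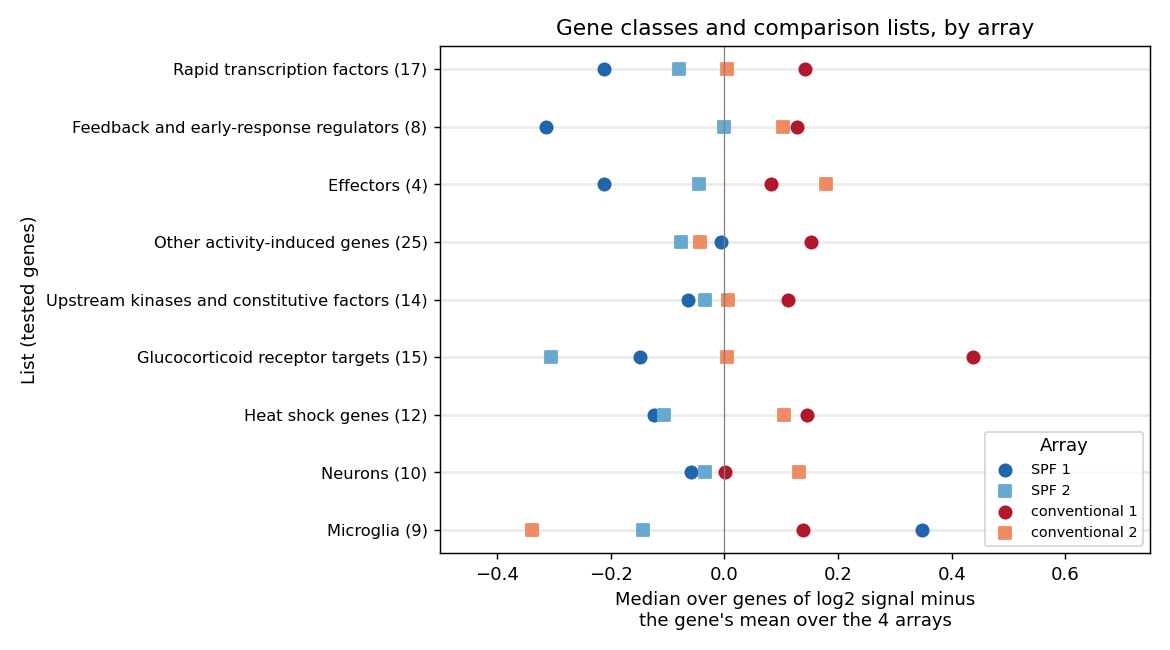
For each class or list, a point shows 1 array as the median over its tested genes (number in brackets) of the log2 signal minus the gene's own mean over the 4 arrays (horizontal axis). SPF arrays lie to the left of conventional arrays for the 3 classes of members, for glucocorticoid receptor targets and for heat shock genes. The same order holds, with a smaller gap, for upstream kinases and constitutive factors and for neuronal markers. The groups overlap for the other activity-induced genes, and microglial genes order the arrays differently.

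Several genes of the set were read by more than 1 probe above background. Of 7 such members, 4 (Klf4, Crem, Dusp6 and Homer1) had all probes on the same side of 0, or 57.1%, against 54.2% of the 4389 genes with several kept probes. Homer1 agreed best: its 3 probes ran from 0.13 to 0.21, among them a dim one annotated to a different RefSeq transcript. The 4 probes of Crem ran from 0.07 to 0.25. Dusp4 had a second probe at 0.70 ± 0.22, with 5.67 and 5.71 against 6.28 and 6.50 and no overlap, and another, near background, at -0.02. Klf4 had 3 probes, from 0.09 for the brightest to 0.53 for one at 4.82 and 5.41 against 5.51 and 5.79, with the other at 4.83 and 4.88 against 5.18 and 5.06. All of them were dim, and the groups did not overlap in either of the dimmer ones. The last was above background on the conventional arrays only. Its passing the filter, and so its count as agreement, rested on that group. The probes of Rgs2 disagreed in sign, at 0.31 and -0.26, the dimmer one with 5.44 and 4.97 against 5.21 and 4.69. The values given above for Egr3, Dusp4 and Rgs2 are those of the brightest probe alone.

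**Figure D4:**
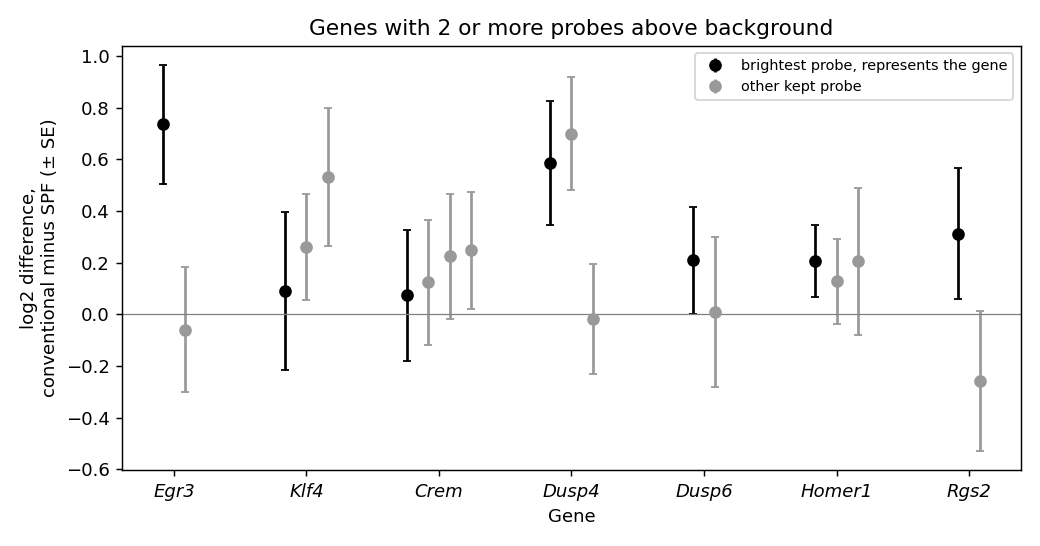
Each point is 1 kept probe of a gene with 2 or more, as its log2 difference between conventional and SPF cord (vertical axis) with the standard error of a fit over all kept probes; black marks the brightest probe. The probes of Egr3, Dusp4 and Rgs2 lie on both sides of 0, and the 3 probes of Homer1 lie between 0.13 and 0.21.

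Of 32 listed activity-induced genes outside the set, 25 were tested, and 16 had a higher mean in conventional cord (49.9% of all features). The conventional arrays lay wholly above the SPF arrays in 8 of 25 (32%, against 15.6% of all features) and wholly below in 2 (15.1% of all features). In limma's fit 0 passed the adjusted test. At an unadjusted p under 0.05, 4 were higher and 1 was lower, against 1.31% and 1.72% of all features. The median difference over the list was 0.05. The 3 with the smallest p were Vgf, a neuropeptide precursor gene (1.32 ± 0.20), Inhba, an activin subunit gene (0.65 ± 0.17), and Bdnf, which encodes the neurotrophin BDNF. Bdnf was at 7.43 and 7.21 on the SPF arrays and at 8.65 and 7.87 on the conventional arrays, and like Egr3 it was highest on conventional replicate 1. Its difference was 0.94 ± 0.28. Plk3, a stress-responsive kinase gene, lay below in both conventional arrays (-0.38 ± 0.14). Of 22 kinases and constitutive factors upstream of the immediate-early genes, 14 were tested, 9 were higher in mean, 0 had an unadjusted p under 0.05, and the median difference was 0.06. Creb1, the gene of CREB itself, was higher in conventional cord without overlap of the groups (0.34 ± 0.19; limma, unadjusted p = 0.118). It was the only one of the 14 to be so (7.14%, against 15.6% of all features).

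Other gene lists were set beside the members, and they differed in direction and in the order of the arrays. Glucocorticoid receptor targets were higher in mean in 12 of 15 tested genes, 9 of them without overlap (against 15.6% of all features). Their median difference was 0.43, and their median stood at 0.44 on conventional replicate 1 and at 0.00 on conventional replicate 2. Of these targets, Errfi1 and Per1 were also counted among the activity-induced genes outside the set. Heat shock genes were higher in 11 of 12, 9 of them without overlap (against 15.6% of all features), with a median difference of 0.25. These counts include Dnaja1, at 5.05 and 5.04 against 5.17 and 5.40. It was above background on the conventional arrays only, so its passing the filter rested on that group. Hspa1a was furthest apart (1.83 ± 0.22, limma, adjusted p = 0.476), at 5.06 and 5.31 against 7.09 and 6.95. Its SPF values were close to the edge of detection, with 1 SPF array above background. Neuronal markers were higher in 6 of 10 tested genes with a median difference of 0.09, and microglial markers were lower in 7 of 9 (median -0.28). Summed over the list, neuronal markers stood at 52702.1 and 51786.4 on the SPF arrays and at 54759.4 and 55893.4 on the conventional arrays. The probes of Snap25, Nefl and Slc6a5 were above background on no array. Neutrophil markers, 9 of 10 tested, were higher in mean in all 9. They summed to 4489 on conventional replicate 1 but to 1188.9, the lowest sum, on conventional replicate 2, against 1436.2 and 1220.7 on the SPF arrays. Red blood cell markers were lower in 5 of 6 tested genes, 4 of them without overlap (against 15.1% of all features). The same 4 had an unadjusted p under 0.05 in limma's fit, against 1.72% of all features on the lower side. The median over the red blood cell markers was -0.90. Their sums were 43195.7 and 29597.3 on the SPF arrays and 21253.1 and 13132.7 on the conventional arrays. Oligodendrocyte markers were lower in mean in 8 of 8 (median -0.14), 2 of them without overlap (against 15.1% of all features). Opalin was furthest apart (-0.92 ± 0.11). Astrocyte markers were higher in 4 of 8 (median 0.01). Endothelial markers were higher in 6 of 8 (median 0.18), and SPF replicate 1 had their lowest sum (4377.2, against 5935.8 to 6367.1 elsewhere). The part of these lists in the differences of the immediate-early genes was not tested.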

How the data were processed

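Cervical cord RNA was read on 4 Illumina BeadChip arrays, 2 per group, with group and replicate number taken from the titles. TRIsure was used for RNA extraction and biotinylated cRNA was hybridised, per the labels' protocols. The deposited bead signals are linear intensity, not yet normalized, per the file headers, with a detection p-value per probe and array. The authors' own table, used as an alternative, holds normalized intensity values; the submitters' processing notes name lumi, without settings or a genome build. Its columns have medians from 216.48 to 216.55 and rank probes as the signals of the same array do.

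Probes were named through the platform annotation (34885 of 45281 carry 1 symbol) and a RefSeq table of assembly GRCm38.p6. Signals were background-corrected, quantile normalized and put on a log2 scale with neqc of limma 3.58.1 (R 4.3.3; offset 16), whose log2 values are computed from the deposited intensities. Probes with a detection p under 0.05 on at least 2 arrays were kept (21065), and the kept probe of highest mean stood for a gene, giving 14634 features. Groups were compared by lmFit and eBayes (mean-variance trend), giving two-sided p-values adjusted by Benjamini-Hochberg across features. The number of arrays limits the precision.

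Every member is accounted for; values per array are given for members with an unadjusted p under 0.1, groups that do not overlap, or kept probes that differ in sign or by over 0.3, and others were added after their values were seen (Egr1, Npas4, Klf2, Dusp6, Arc and Nptx2). From other lists up to 3 genes of smallest p were named. Plk3, Opalin, Dnaja1, Hoxa5, Hoxb5, Hoxc5, Hoxc10 and Hoxd10 were also chosen with values known. Errfi1 and Per1 were named because lists share them. The members, classes and lists were all chosen with earlier results of these data known. Alternatives covered background correction, normalization, the authors' table, the detection filter, the choice of probe, the variance model, the replicate number as a block and each array left out; a filter on detection in both groups was added after seeing the data. No slide or scan date was in the files.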

Additional observations from a re-analysis of the deposited data

How the results depend on the processing

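The number of members passing the adjusted test was 0 in the reported fit and under all 15 alternatives, the replicate block included, where the lowest adjusted p of a member was 0.449. As a block, the replicate number raised the members with an unadjusted p under 0.05 from 4 to 10 and the features passing the adjusted test from 0 to 5; the labels do not say that a number marks a shared batch, and the deviations of same-numbered arrays correlated at 0.198 over all features and 0.391 over the 29 members. The median member difference was 0.0592 in the authors' table, where low values are compressed, and 0.0913 without a detection filter, which adds probes at background; with 1 array left out it ran from 0.0881 to 0.41. The median of rapid factors was 0.21 with the mean of a gene's probes (0.0636 to 0.29 with 1 array left out), that of feedback regulators ran from 0.0839 to 0.46, and that of effectors was 0.17 in the authors' table (0.17 to 0.34). With features above background in both groups, chosen after seeing the data, the median member difference was 0.24. The contrast of rapid factors with effectors turned to 0.10 with the mean of a gene's probes and to 0.095 without a filter, and ran from -0.19 to 0.0442 with 1 array left out; the cause was not tested. Members whose groups do not overlap numbered 19 to 21 with 1 array left out, where 3 arrays overlap less often by construction. Median scaling turned the sign of Junb (-0.0330), Egr1 (-0.0172) and Zfp36 (-0.0041), with a median over all features of -0.04. Leaving out 1 array turned the sign of 13 members, which ranged from -0.13 to 0.20 for Junb, -0.0842 to 0.11 for Egr1, -0.68 to 0.12 for Egr2, -0.0486 to 0.59 for Egr4, -0.67 to 0.46 for Npas4, -0.24 to 0.65 for Klf2, -0.33 to 0.51 for Klf4, -0.24 to 0.11 for Klf6, -0.20 to 0.35 for Crem, -0.10 to 0.0636 for Srf, -0.0487 to 0.47 for Dusp6, -0.0227 to 0.11 for Zfp36 and -0.0790 to 0.83 for Nptx2. The other 16 members, Fosb, Egr3, Fos, Dusp1, Dusp4, Homer1 and Gadd45b among them, kept their sign under every alternative in which they were tested. Changing the variance model or adding the block cannot change a difference here, and choosing probes by lowest detection p left every member's difference unchanged. The dimmer kept probes on the other side of 0, of Egr3 (-0.0586), Dusp4 (-0.0180) and Rgs2 (-0.2576), were not used alone.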

Other observations

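Other motifs of immediate-early promoters were searched in the same 250-base windows, on both strands. The CArG box, bound by SRF, was found in 7 of 37 member windows (18.9%) and in 1.47% of all windows. The 7 windows came from 4 of 30 genes, Dusp5, Egr2, Srf and Zfp36, so windows of the same gene were counted more than once. The EGR site GCGGGGGCG was found in 7 of 37 (18.9%), in Fosb, Fosl2, Klf2, Klf4, Nr4a1, Srf and Zfp36, against 2.57%. The AP-1 site TGANTCA was found in 0 of 37, against 6.75% of all windows. Of the members that hold a CArG box, Dusp5 had conventional arrays above the SPF arrays, and Egr2, Srf and Zfp36 had overlapping groups.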
